A study of Mus musculus with 18 samples.

Results

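Expression of 8 mouse genes for lipid transport was described in tumors of the K7M2 osteosarcoma line: the apolipoprotein genes Apoe, Apoc1, Apoc2 and Apoc4, the cholesterol exporters Abca1 and Abcg1, the lipase gene Lpl, and Nr1h3, which encodes the nuclear receptor LXR alpha. They were chosen from a list of names, as the rows of these 8 genes among the 20878 genes of the expression matrix. The list was drawn up with results of these tumors known and does not say which comparison led to it. The p-values of the 8 genes therefore place them among all genes and are no independent support for their differences.

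The matrix covers 18 tumors, each from a different mouse, in 4 groups. The grafted cells carried either a control shRNA (CT) or an shRNA against Atrx (KD), the gene of a chromatin remodeler, and the hosts were Balb/c mice (4 CT and 4 KD tumors) or NSG mice (5 CT and 5 KD tumors). K7M2 cells come from Balb/c mice, so Balb/c hosts are syngeneic, whereas NSG mice carry the Prkdc scid and Il2rg mutations and lack T, B and NK cells. The hosts were aged 6 to 8 weeks and received 500000 cells each, and whole cages of 5 mice were given 1 kind of cells, so cage and knock-down cannot be told apart here. Every group received lentivirally transduced cells, and the knock-down lies in the grafted cells alone. A tumor sample mixes grafted and host cells, and in such bulk RNA fewer cells of a type and less RNA per cell cannot be told apart. The study's methods describe the hosts as female. The Y-linked gene Eif2s3y was at 0 FPKM in all 8 Balb/c tumors and between 5.64 and 14.4 FPKM in the 10 NSG tumors, which goes against the stated sex for the NSG hosts. Host strain, host immune status, cage and this Y-linked expression cannot be told apart in a comparison of hosts.

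Values are FPKM (sequenced fragments relative to transcript length and library size) as deposited by the authors on the log2(FPKM + 1) scale. The libraries were estimated to hold 15000000 to 25400000 fragments (median 20400000), and a level that corresponds to 3 or fewer fragments was taken as the detection floor. Groups were compared with limma on log2(FPKM + 1), which gave the log2 fold change (log2FC) with its standard error (SE), and a gene was called at a Benjamini-Hochberg adjusted p under 0.05 over all genes tested. Atrx itself was at 17.6 ± 7.12 FPKM in CT and 13.95 ± 6.54 FPKM in KD tumors of Balb/c mice (SD, n = 4 each), and at 17.6 ± 4.99 and 10.2 ± 3.47 FPKM in NSG mice (SD, n = 5 each). It was not called in either host (limma, log2FC −0.34 with adjusted p = 0.999, and −0.74 with adjusted p = 0.0610), and the groups overlapped in both. These tumor values include Atrx RNA of host cells. At the protein level, the paper reports from western blots that ATRX was successfully extinguished in each transduced cell line, K7M2 included. The macrophage markers Adgre1, Cd68 and Csf1r were among 12 expressed macrophage genes, while the osteoblast genes Sp7 and Alpl reached at most 0.195 and 0.662 FPKM. Of the other osteoblast genes, Ibsp and Bglap reached at most 0.0292 and 0.431 FPKM, whereas Runx2 was at 3.54 to 11.1, Phex at 17.5 to 67.1 and Col1a1 at 56.6 to 499 FPKM.

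Apolipoprotein E is a lipid carrier secreted by hepatocytes and, in many other tissues, chiefly by macrophages. In macrophages, LXR alpha and its paralog LXR beta sense oxidized cholesterol, pair with RXR and switch on Abca1, Abcg1, Apoe and the neighboring Apoc genes, through which cholesterol leaves the cell for lipoprotein particles. Apolipoprotein C-II is the activator of lipoprotein lipase, the product of Lpl, which releases fatty acids from lipoproteins at the vessel wall, and apolipoprotein C-I slows this uptake.

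The 4 apolipoprotein genes lie together on the minus strand of mouse chromosome 7 (mm10). Apoe runs from 19696244 to 19699188 with transcripts of up to 1343 nt, Apoc1 from 19689480 to 19692659, Apoc4 from 19678084 to 19681460, and Apoc2 from 19671579 to 19677941. Abca1, with 50 exons, spans 53030789 to 53159895 of chromosome 4 (minus strand), and Abcg1 spans 31057694 to 31117984 of chromosome 17 (plus strand). Lpl spans 68880555 to 68906932 of chromosome 8 (plus strand), and Nr1h3 spans 91184061 to 91195116 of chromosome 2 (minus strand). RefSeq also lists a read-through gene, Apoc4-apoc2, from 19671579 to 19681460, which shares the first exon of Apoc4 and the coding exons of Apoc2, so the fragments of Apoc2 were divided between 2 gene entries.

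The promoters of the 3 genes that were lower in KD tumors of NSG mice are shown, because LXR acts through a direct repeat of a hexamer. The sequences are the 250 bases before the outermost annotated start, from RefSeq (GRCm38.p6, the same assembly as mm10), where the 5 genes Apoe, Apoc2, Apoc4, Abca1 and Nr1h3 had an entry. They lie at chr7:19699189-19699438, chr7:19681461-19681710 and chr4:53159896-53160145, all on the minus strand and written 5′ to 3′. Capitals mark a match on either strand to the hexamer AGGTCA or to the spaced repeat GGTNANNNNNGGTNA, a loosened form of the LXR element that was composed after the Abca1 sequence had been read.
Apoe: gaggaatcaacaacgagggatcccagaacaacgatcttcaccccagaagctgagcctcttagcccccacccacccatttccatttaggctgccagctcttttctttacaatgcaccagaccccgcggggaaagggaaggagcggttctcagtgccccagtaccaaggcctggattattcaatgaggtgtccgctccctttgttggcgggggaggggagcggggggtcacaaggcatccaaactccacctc
Apoc4: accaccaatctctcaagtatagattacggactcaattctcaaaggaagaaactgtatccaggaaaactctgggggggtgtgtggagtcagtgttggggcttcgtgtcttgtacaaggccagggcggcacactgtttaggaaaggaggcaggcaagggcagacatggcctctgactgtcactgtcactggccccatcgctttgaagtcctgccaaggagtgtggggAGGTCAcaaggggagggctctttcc
Abca1: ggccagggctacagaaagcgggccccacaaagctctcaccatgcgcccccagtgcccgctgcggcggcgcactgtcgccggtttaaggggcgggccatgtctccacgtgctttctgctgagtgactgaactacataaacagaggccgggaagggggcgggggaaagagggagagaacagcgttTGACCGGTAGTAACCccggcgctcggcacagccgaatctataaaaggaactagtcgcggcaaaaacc
The spaced repeat was found in the Abca1 promoter, on the opposite strand from base 67 to base 53 before the start. It occurs in 204 of 32851 promoters of this length (0.621%), and the strict form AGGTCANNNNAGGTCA, found in none of the 5, occurs in 5 (0.0152%). The Apoc4 promoter held the single hexamer from base 25 to base 20 before the start, as 14.02% of all promoters do, and the Apoe promoter held neither. The Apoc2 promoter also held the hexamer, from base 115 to base 110 before the start, and that of Nr1h3 held neither. Apoc2 was not called with the knock-down, but most KD tumors of NSG mice were at or under its floor. These matches describe letters only and were not tested for function. Sequence farther than 250 bases before the start was not searched, so a promoter without a match does not mean a gene without such an element.

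Apoe was the most abundant of the 8 genes in every tumor. In Balb/c mice it was at 1288, 951, 1228 and 766 FPKM in the CT tumors of mice 41, 43, 44 and 45, and at 508, 957.5, 877.5 and 912.5 FPKM in the KD tumors of mice 56, 58, 59 and 60. In NSG mice it was at 804, 695, 1227, 789 and 568.5 FPKM in the CT tumors of mice 1 to 5, and at 523, 330, 183, 259 and 217 FPKM in the KD tumors of mice 26 to 30. All 5 KD tumors of NSG mice were thus below all 5 CT tumors, the highest of them, mouse 26, being close to the lowest CT tumor, mouse 5. Mean levels were 817 ± 248 FPKM in CT and 302 ± 135 FPKM in KD tumors (SD, n = 5 each), and the log2FC was −1.48 (SE 0.28, limma, adjusted p = 0.0162). Without the KD tumor of mouse 30 limma gave an adjusted p of 0.0551, the highest of the 10 fits without 1 tumor, the lowest being 0.00769. The Balb/c groups overlapped, with means of 1058 ± 244 and 814 ± 207 FPKM (SD, n = 4 each) and a log2FC of −0.39 (SE 0.29, limma, adjusted p = 0.999).

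Apoc4 was above the floor in NSG mice alone. It was at 3.39, 8.47, 9.43, 5.83 and 3.33 FPKM in their CT tumors and at 1.61, 0.247, 0.372, 0.754 and 0.209 FPKM in their KD tumors, where 3 of 5 were at or under the floor. The KD tumor of mouse 26 was again the highest of its group, and no KD tumor reached the lowest CT tumor. The log2FC was −2.08 (SE 0.29, limma, adjusted p = 0.00709), and the adjusted p was at most 0.0285 in limma when any 1 tumor was left out. In Balb/c mice all 8 tumors were at or under the floor, with at most 0.276 FPKM, so the change with the knock-down could not be measured there.

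Abca1, which loads cholesterol onto lipid-poor apolipoproteins, was at 39.7, 36.3, 87.9, 41.95 and 38.3 FPKM in the CT tumors of NSG mice and at 22.7, 29.4, 15.1, 18.3 and 15.7 FPKM in the KD tumors. The 2 groups did not overlap, and the CT tumor of mouse 3 was far above the other 4. The log2FC was −1.19 (SE 0.25, limma, adjusted p = 0.0231). Without mouse 3 it was −0.96 (limma, adjusted p = 0.0116), whereas the adjusted p was between 0.0535 and 0.0733 in limma without CT mouse 4 or without KD mouse 28, 29 or 30. Abca1 in Balb/c mice was at 45.4, 41.8, 37.1 and 42.8 FPKM in CT tumors and at 39.5, 25.1, 23.15 and 44.3 FPKM in KD tumors. Mice 58 and 59 lay below all CT tumors and mice 56 and 60 did not (log2FC −0.38 with SE 0.21, limma, adjusted p = 0.999).

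**Figure D1:**
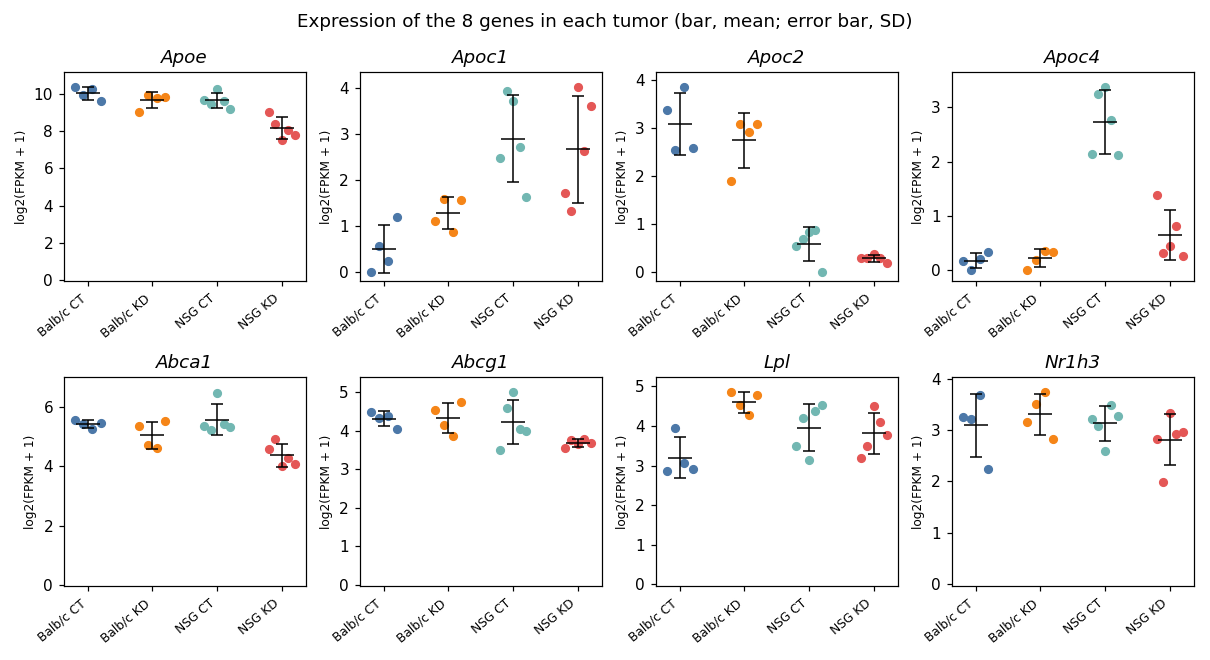
Expression of the 8 genes as log2(FPKM + 1), 1 panel per gene, with a point per tumor in the 4 groups of host and shRNA, and the mean with SD in black. In NSG mice, Apoe, Apoc4 and Abca1 are lower in all 5 KD tumors than in any of the 5 CT tumors, and Apoc2 is higher in all 8 Balb/c tumors than in any of the 10 NSG tumors.

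Abcg1, which passes cholesterol on to mature lipoproteins, was not called. In NSG mice it was at 10.3, 23.15, 31.0, 15.6 and 14.9 FPKM in CT tumors and at 10.75, 12.5, 11.55, 12.8 and 11.8 FPKM in KD tumors. The CT tumor of mouse 1 was the lowest of all 10, the other 4 CT tumors were above every KD tumor, and the log2FC was −0.54 (SE 0.23, limma, adjusted p = 0.159). Its Balb/c levels were 19.1 ± 2.64 FPKM in CT and 19.7 ± 5.46 FPKM in KD tumors (SD, n = 4 each), with a log2FC of 0.02 (SE 0.20, limma, adjusted p = 0.999).

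Lpl had the log2FC farthest from 0 of the 8 genes in Balb/c mice. Its level was 6.30, 14.5, 7.345 and 6.58 FPKM in the CT tumors of mice 41, 43, 44 and 45 and 27.7, 21.9, 18.2 and 26.45 FPKM in the KD tumors. All 4 KD tumors were above all 4 CT tumors, of which mouse 43 came closest. The log2FC of 1.40 (SE 0.25) had an unadjusted p of 0.000317 but an adjusted p of 0.311 in limma and was not called (exact permutation test, two-sided, p = 0.0286, the smallest that 4 tumors against 4 allow). In NSG mice Lpl was at 10.3, 17.5, 7.88, 19.8 and 22.0 FPKM in CT tumors and at 8.16, 10.2, 21.8, 16.04 and 12.6 FPKM in KD tumors, and the groups overlapped throughout (log2FC −0.14 with SE 0.30, limma, adjusted p = 0.808).

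Nr1h3 was at similar levels in the 4 groups, with means of 8.11 ± 3.36 and 9.21 ± 2.74 FPKM in CT and KD tumors of Balb/c mice (SD, n = 4 each) and of 7.95 ± 1.92 and 6.32 ± 2.2 FPKM in NSG mice (SD, n = 5 each). Its log2FC values were 0.21 (SE 0.31) and −0.32 (SE 0.24), neither of them called (limma, adjusted p = 0.999 and 0.412). The groups overlapped in both hosts.

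Apoc1 and Apoc2 were also not called with the knock-down. Apoc1 was at 0, 0.476, 0.180 and 1.30 FPKM in CT tumors of Balb/c mice and at 1.15, 1.99, 0.823 and 1.94 FPKM in their KD tumors, where 2 of the CT tumors were at or under the floor (log2FC 0.78 with SE 0.27, limma, adjusted p = 0.974). In NSG mice Apoc1 ranged from 2.12 to 14.3 FPKM in CT tumors and from 1.51 to 15.3 FPKM in KD tumors, a spread larger than that of any other of the 8 genes within these groups on the log2 scale (SD 0.94 and 1.17). Apoc2 was at 9.39, 4.82, 13.5 and 4.93 FPKM in CT tumors and at 2.72, 7.41, 6.496 and 7.42 FPKM in KD tumors of Balb/c mice, with mouse 56 lowest as it was for Apoe. Its log2FC values were −0.35 (SE 0.36, limma, adjusted p = 0.999) in Balb/c and −0.30 (SE 0.14, limma, adjusted p = 0.206) in NSG mice.

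In all, 3 of the 8 genes were called in NSG mice and all 3 were lower in KD tumors, where 994 of 14654 genes tested were called (6.78%) and 447 (3.05%) were called lower. For the same 3 genes the groups did not overlap, against 7.5% of all genes tested. Among Balb/c tumors 0 of 8 were called by limma, against 1 of 14701 genes (0.0068%), with 2 of the 8 and 609 of all genes at an unadjusted p under 0.05. The paper, using DESeq, reports both down- and up-regulated genes between KD and CT tumors of Balb/c mice. That test was not run here, so the limma count does not mean that no genes changed there. For 1 of the 8, Lpl, the Balb/c groups did not overlap, against 3.18% of all genes tested. The median log2FC of the 8 genes was −0.43 in NSG and 0.03 in Balb/c mice, beside −0.001 and −0.003 over all genes tested. Without KD mouse 30, 1 of the 8 genes (Apoc4) was called in NSG mice.

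Whether the change differed between hosts was tested as the interaction in limma over all 18 tumors, which share the CT and KD groups of the comparisons above. None of the 8 genes was called, as 0.0% of the 14803 genes tested were, while 4 of the 8 and 1527 of all genes had an unadjusted p under 0.05. One of the 4 is Apoc4, for which no difference between hosts was measured, because all 8 Balb/c tumors lay at or under its floor. The change in Balb/c minus the change in NSG mice was 1.54 on the log2 scale for Lpl (SE 0.43, limma, adjusted p = 0.251). It was 1.09 for Apoe (SE 0.41, limma, adjusted p = 0.392) and 0.81 for Abca1 (SE 0.36, limma, adjusted p = 0.447). With libraries weighted by quality and a robust prior, Apoe and Lpl were called (limma, adjusted p = 0.0242 and 0.0271), so the call for these genes depended on that setting.

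The levels were then compared between hosts, separately for CT and for KD tumors. Apoc2 was higher in Balb/c mice with both kinds of cells. Its 10 values in NSG mice were 0.453, 0.595, 0.776, 0.825 and 0 FPKM in CT tumors and 0.218, 0.211, 0.300, 0.219 and 0.128 FPKM in KD tumors, against 2.72 FPKM or more in every Balb/c tumor, and 1 CT and 4 KD tumors of NSG mice were at or under the floor. The log2 difference was 2.50 in CT tumors (SE 0.28, limma, adjusted p = 0.000510) and 2.46 in KD tumors (SE 0.22, limma, adjusted p = 0.000104). The read-through gene Apoc4-apoc2 was at 0.811, 0.721 and 0.520 FPKM in the CT tumors of Balb/c mice 41, 43 and 44 and at or under the floor in all other tumors. With its FPKM added to that of Apoc2, a sum chosen after seeing the data, the differences were 2.59 and 2.46, and the hosts still did not overlap.

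Apoc4 and Apoc1 went the other way in CT tumors. Apoc4 was at 6.09 ± 2.82 FPKM in NSG mice (SD, n = 5), at least 15.5-fold higher than the mean floor of 0.394 FPKM under which the 4 Balb/c tumors lay (fitted log2 difference −2.55 for Balb/c minus NSG, limma, adjusted p = 0.000245). In KD tumors Apoc4 was at 0.639 ± 0.585 FPKM in NSG mice (SD, n = 5) and not called. Apoc1 was at 4.59, 14.3, 12.1, 5.61 and 2.12 FPKM in CT tumors of NSG mice and 1.30 FPKM or less in those of Balb/c mice (log2 difference −2.40, SE 0.44, limma, adjusted p = 0.0133). When each library was corrected for its trend along transcript length, the adjusted p for Apoc1 was 0.0736 in limma. In KD tumors the log2 difference of Apoc1 was −1.39 (SE 0.51, limma, adjusted p = 0.202), and the groups overlapped.

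Apoe was not called between hosts in CT tumors (log2 difference 0.39, SE 0.25, limma, adjusted p = 0.400). With library weights it was called (0.69, limma, adjusted p = 0.0230), and relative to the macrophage mean of the same tumor it was higher in Balb/c mice by 0.56, with no overlap. Relative to the adipocyte mean it differed by 0.595 and relative to the endothelial mean by −0.409, both with overlap. In KD tumors it was higher in Balb/c mice by 1.48 on the log2 scale (SE 0.31, limma, adjusted p = 0.0259), although the Balb/c tumor of mouse 56, at 508 FPKM, lay below the NSG tumor of mouse 26, at 523 FPKM. This call was lost in 6 of the 9 fits that each left out 1 tumor, with adjusted p up to 0.0824 in limma. Abcg1 was higher in all 4 Balb/c than in all 5 NSG KD tumors without being called (log2 difference 0.65, SE 0.17, limma, adjusted p = 0.0687). It was called with library weights, with the length trend removed and without Balb/c KD mouse 59 (limma, adjusted p = 0.0309, 0.0228 and 0.0151). In order of its mean, Apoe was highest in CT tumors of Balb/c mice, then nearly equal in CT tumors of NSG and KD tumors of Balb/c mice, and lowest in KD tumors of NSG mice.

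In CT tumors, 3 of the 8 genes were called between hosts, against 3.18% of 14828 genes, and for 3 the hosts did not overlap, against 7.57%. In KD tumors, 2 of the 8 were called, both higher in Balb/c mice, against 3.64% of 14669 genes called and 2.8% called higher. For 2, Apoc2 and Abcg1, the hosts did not overlap, against 8.13%. The host comparisons use the same tumors as the comparisons of KD with CT and are not independent of them.

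**Figure D2:**
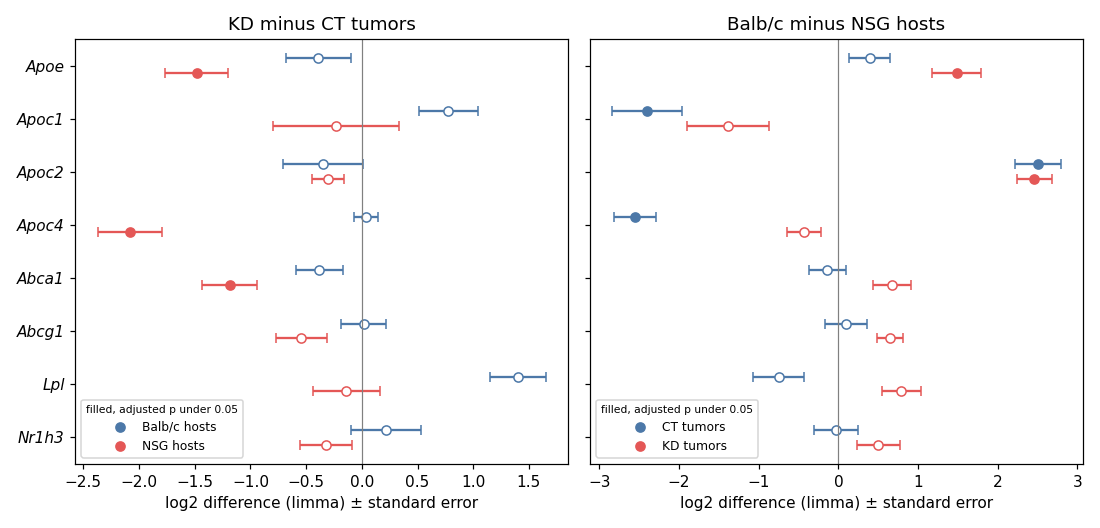
Log2 differences of the 8 genes with standard errors from limma, for KD minus CT tumors in each host at the left and for Balb/c minus NSG hosts in each kind of tumor at the right. Filled points, those with an adjusted p under 0.05, are Apoe, Apoc4 and Abca1 in NSG mice at the left and Apoc1, Apoc2 and Apoc4 (CT) and Apoe and Apoc2 (KD) at the right.

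The other genes within 100 kb of the Apoe start were not called. Of 8 such genes, Clasrp, Relb, Clptm1, the read-through gene Apoc4-apoc2, Tomm40, Nectin2, Bcam and Cblc, 7 were tested in Balb/c and 6 in NSG mice, and limma called 0 in each comparison. With the knock-down, 0.0068% (Balb/c) and 6.78% (NSG) of all genes tested were called, so 0 of so few genes does not set them apart. Their median log2FC in NSG mice was 0.25. In Balb/c mice the read-through gene was at −0.56 (limma, unadjusted p = 0.00848, adjusted p = 0.747) and Nectin2 at 0.61 (limma, unadjusted p = 0.00683, adjusted p = 0.718). The read-through gene was at or under its floor in 1 CT and 4 KD tumors of Balb/c mice. Within the cluster itself, Apoe and Apoc4 were lower in NSG KD tumors, while Apoc1, which lies between them, had a log2FC of −0.24 (SE 0.56, limma, adjusted p = 0.830).

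**Figure D3:**
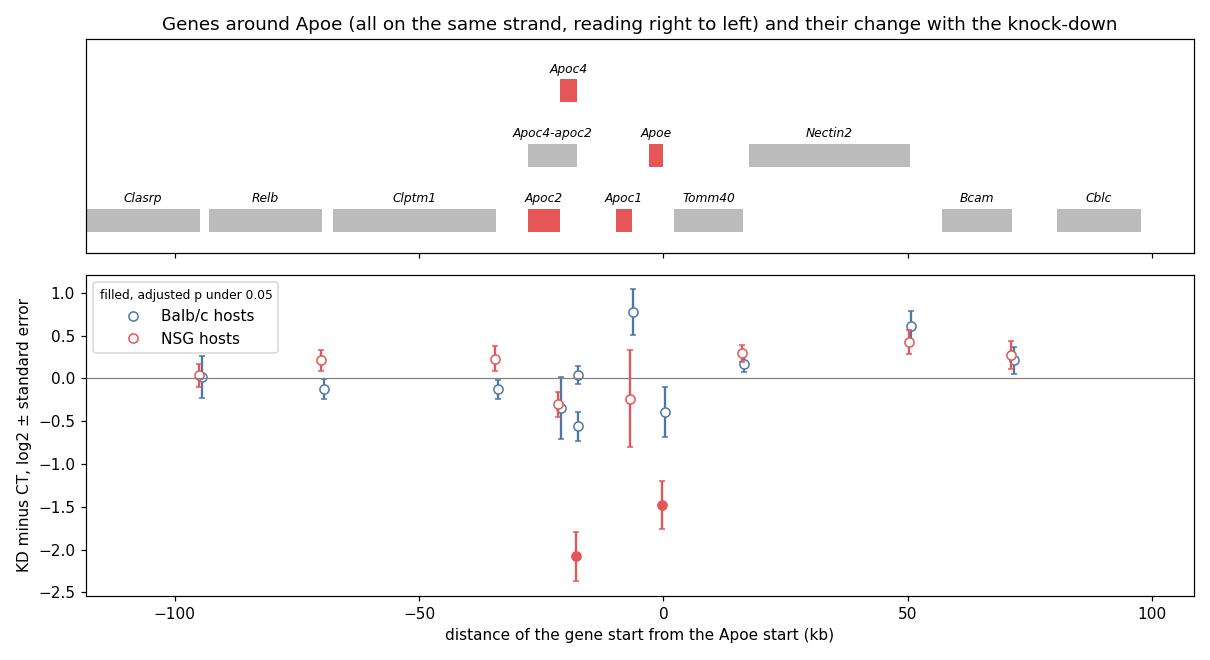
Top, the genes within 100 kb of the Apoe start drawn to scale, the apolipoprotein genes in red. Bottom, the log2 difference between KD and CT tumors with its standard error at each gene's start, in both hosts; the filled points are Apoc4 and Apoe in NSG mice, and the read-through gene lies at −0.56 in Balb/c mice.

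The wider pathway was followed in 5 lists of 59 genes, of which 58 were in the matrix. The LXR partners, among them Nr1h2 (LXR beta) and Rxra, gave 0 called genes of 5 tested by limma in every comparison, against at most 6.78% of all genes tested. Nr1h2 was at 29.8 ± 4.15 FPKM in CT and 30.4 ± 0.782 FPKM in KD tumors of NSG mice (SD, n = 5 each, log2FC 0.04). Among other LXR targets, 2 of 11 were called in NSG mice in opposite directions, where 6.78% of all genes tested were called. Mylip, whose product degrades the LDL receptor, went from 12.5 ± 3.45 to 7.07 ± 0.107 FPKM (SD, n = 5 each, log2FC −0.71, limma, adjusted p = 0.0247). Scd1, a fatty acid desaturase gene that adipocytes also express, rose from 40.1 ± 2.81 to 87.3 ± 42.2 FPKM (SD, n = 5 each, log2FC 0.98, limma, adjusted p = 0.0442), with its highest levels, 153.5 and 101.5 FPKM, in the KD tumors of mice 28 and 30.

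Of 19 genes for cholesterol uptake, storage and oxidation, 3 were called in NSG mice, against 6.78% of all genes tested. Cyp27a1, which makes 27-hydroxycholesterol, and the macrophage scavenger receptor gene Msr1 were lower (log2FC values −0.88 and −0.71, limma, adjusted p = 0.0309 and 0.0222). Scarb1, the receptor for high-density lipoprotein, was higher (0.47, limma, adjusted p = 0.0329). Of 8 tested genes of the lipase list, 3 were called and all were higher, where 3.73% of all genes tested were called higher. They were Mgll (0.85, limma, adjusted p = 0.0196), Gpihbp1, the endothelial anchor of lipoprotein lipase (0.56, limma, adjusted p = 0.0483), and the lipase inhibitor gene Angptl4 (0.37, limma, adjusted p = 0.0280). Of 3 tested apolipoprotein genes outside the cluster, limma called 0. Over all 5 lists, 8 of 46 tested genes were called in NSG mice, 5 higher and 3 lower, with a median log2FC of 0.01, against 6.78% of all genes tested. This count was between 0 and 5 without CT mouse 1, 2, 4 or 5 or without KD mouse 28, 29 or 30.

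In Balb/c mice limma called 0 of the 48 tested pathway genes, against 0.0068% of all genes. At an unadjusted p under 0.05 were 4 of the 48, beside 609 of all 14701 genes tested. The groups did not overlap for 2 of the 48, against 3.18% of all genes tested with the knock-down in Balb/c mice. These were Gpihbp1, which was higher in KD tumors (log2FC 0.73, limma, adjusted p = 0.562), and Ch25h, the cholesterol 25-hydroxylase gene, which was lower (−1.32, limma, adjusted p = 0.753). In the interaction limma called 0 of 47, against 0.0% of all genes. There, 4 of the 47 had an unadjusted p under 0.05, beside 1527 of all 14803 genes tested. Between hosts, Lipg, an endothelial lipase gene, was lower in Balb/c CT tumors (log2 difference −0.75, limma, adjusted p = 0.0346), the 1 gene called of 46, against 3.18% of all genes. In KD tumors Cd36, Cyp27a1 and Gpihbp1 were higher in Balb/c mice (0.88, 0.85 and 0.81, limma, adjusted p = 0.0247, 0.0373 and 0.0187), the 3 called of 48, against 3.64% of all genes. The first count was 0 without Balb/c mouse 41, 43 or 45 or NSG mouse 2 or 5 and 2 without Balb/c mouse 44 or NSG mouse 1, and the second was 1 without Balb/c mouse 56 or 58 and 0 without NSG mouse 30.

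**Figure D4:**
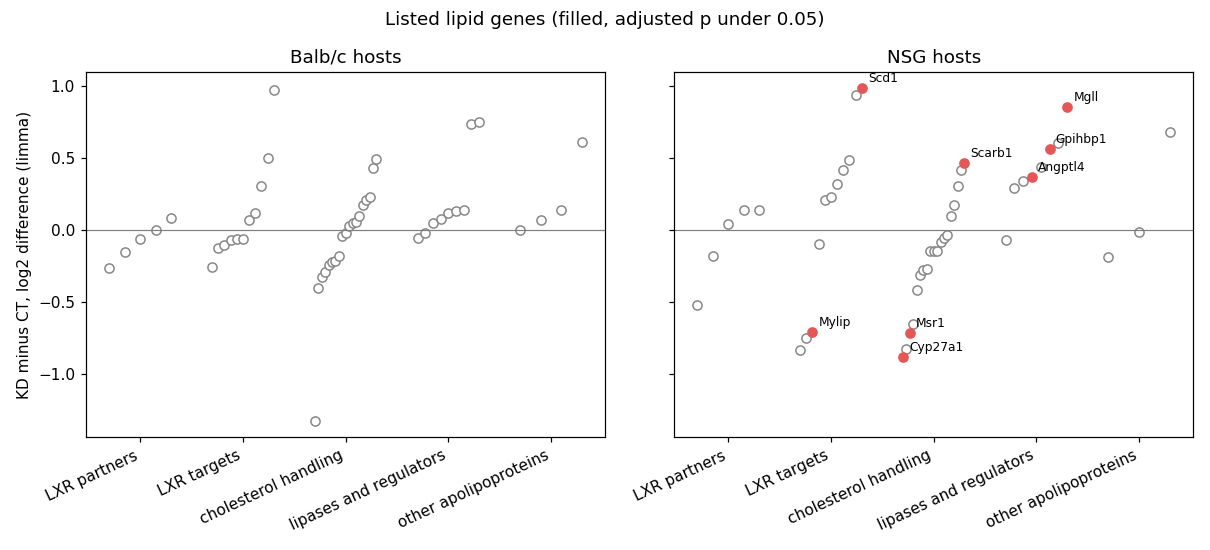
Log2 differences between KD and CT tumors for the tested genes of the 5 pathway lists, Balb/c hosts at the left and NSG hosts at the right. The 8 filled and named points in NSG mice are the called genes, 5 above and 3 below 0, and no point is filled in Balb/c mice.

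Markers of other cells moved in the same comparisons. The mean of 12 macrophage markers in log2(FPKM + 1) was between 6.70 and 7.41 in CT and between 6.32 and 6.81 in KD tumors of NSG mice, so that KD minus CT was −0.50 (p = 0.0159 by exact permutation, two-sided), and 4 of the 12 (Trem2, C1qb, C1qc and Mpeg1) were called lower, against 3.05% of all genes tested. Csf1r went the other way, from 253 ± 53.9 to 321 ± 19.6 FPKM (SD, n = 5 each, log2FC 0.37, limma, unadjusted p = 0.0200, adjusted p = 0.114), and was not called. Endothelial markers were higher in KD tumors by 0.73 (exact permutation test, p = 0.0238), and 3 of 7 were called higher, against 3.73% of all genes tested. Adipocyte markers were at 3.80, 2.63 and 2.85 in the KD tumors of mice 28, 29 and 30 and between 0.98 and 1.87 in the other 7 NSG tumors. Relative to the macrophage mean of the same tumor, a scale chosen after seeing the data, the difference between KD and CT tumors was −0.98 for Apoe and −1.58 for Apoc4, with no overlap, and −0.68 for Abca1, with overlap. In Balb/c mice the macrophage mean differed by −0.12 (exact permutation test, p = 0.514), and the adipocyte and endothelial means by 0.55 each (exact permutation test, p = 0.257 and 0.143). The difference of Lpl there was 1.52 relative to the macrophage mean, with no overlap, and 0.85 relative to either the adipocyte or the endothelial mean, with overlap. Hepatocyte markers averaged at most 0.32, and Alb was at most 0.157 FPKM, while Cyp2e1 reached 2.95 FPKM in the Balb/c KD tumor of mouse 58, 2.86 in the NSG KD tumor of mouse 28 and 2.24 in the Balb/c KD tumor of mouse 56. Eif2s3y was also lower in KD than in CT tumors of NSG mice, at 7.99 ± 2.27 against 13.3 ± 1.42 FPKM with no overlap (SD, n = 5 each, log2FC −0.70, SE 0.16, limma, adjusted p = 0.0306). The part of these cell types and of this Y-linked expression in the results was not tested.

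Variation among tumors of the same group was examined by subtracting the group means, which removes the differences described above. Apoe followed the macrophage markers over the 18 tumors (Pearson r = 0.84, permutation p = 0.00015; Spearman rho = 0.84, permutation p = 0.00026), with r = 0.79 without the 2 tumors farthest from the median. The adjusted p over the 24 relations of the 8 genes with 3 marker lists was 0.003 in this permutation test, and r was 0.78 within NSG and 0.97 within Balb/c tumors. Apoc4 (r = 0.79, rho = 0.70, permutation p = 0.00029 and 0.005, adjusted p = 0.003 and 0.036) and Apoc2 (r = 0.68, rho = 0.70, permutation p = 0.003 for each, adjusted p = 0.027 and 0.036) also followed them. Without the 2 farthest tumors these were r = 0.67 and 0.64, and within hosts r was 0.94 in NSG and 0.46 in Balb/c tumors for Apoc4 and 0.55 and 0.88 for Apoc2. Apoc4 was at or under its floor in all 4 CT and 4 KD tumors of Balb/c mice and in 3 NSG KD tumors. Apoc2 was so in 1 CT and 4 KD tumors of NSG mice. The r of Apoc4 in Balb/c and of Apoc2 in NSG tumors therefore cannot be told apart from counting error. Apoc1 followed the adipocyte markers instead (r = 0.71, rho = 0.69, permutation p = 0.007 and 0.006, adjusted p = 0.042 and 0.036). That relation lay in the NSG tumors (r = 0.83) and not in the Balb/c tumors (r = 0.03), and r was 0.50 without KD mice 27 and 28.

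**Figure D5:**
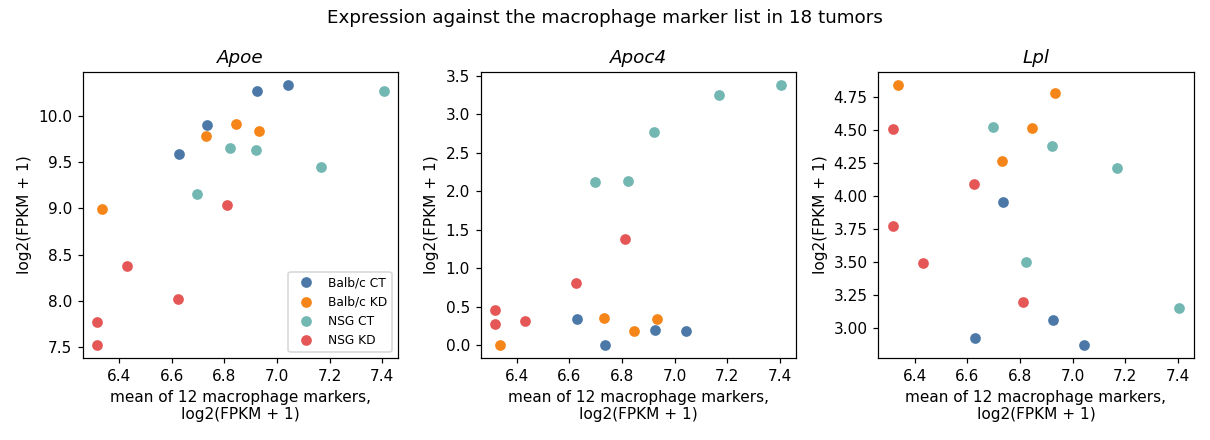
Levels of Apoe, Apoc4 and Lpl against the mean of 12 macrophage markers in the 18 tumors, both in log2(FPKM + 1), colored by group. Apoe increases along the marker mean within both hosts, Apoc4 does so in NSG tumors and stays at or under the floor in Balb/c tumors, and the 4 KD tumors of Balb/c mice are the group with the highest mean of Lpl.

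Among the 28 pairs of the 8 genes, 3 had an adjusted p under 0.05 by Pearson's r and none by Spearman's rho in the permutation test. Abca1 ran opposite to Nr1h3 (r = −0.72, rho = −0.69, permutation p = 0.00051 and 0.004, adjusted p = 0.014 and 0.053). The relation was r = −0.83 in NSG and −0.62 in Balb/c tumors, and −0.59 without NSG CT mouse 3 and KD mouse 27. The Abca1 transcript has 10260 nt and those of Nr1h3 at most 1955 nt, and no r corrected for transcript length is given here. Atrx was, like Abca1, higher in Balb/c KD mice 56 and 60 (21.5 and 17.3 FPKM) than in 58 and 59 (7.88 and 9.11 FPKM). The cause of the relation was not tested. Apoe ran opposite to Lpl (r = −0.69, rho = −0.70, permutation p = 0.004 and 0.003, adjusted p = 0.034 and 0.053) and with Apoc2 (r = 0.60, rho = 0.64, permutation p = 0.004 and 0.010, adjusted p = 0.034 and 0.092). Without the 2 farthest tumors r was −0.66 and 0.63. Within hosts, Apoe and Lpl gave r = −0.85 in NSG and −0.32 in Balb/c tumors, and Apoe and Apoc2 gave 0.39 and 0.92. For Apoc2, 1 CT and 4 KD tumors of NSG mice lay at or under the floor. All values of a tumor come from 1 library.

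By the same measure, the genes most like Apoe among 12173 with a mean of at least 1 FPKM were C1qc (r = 0.884), C1qa (0.884), Ctsf (0.872), Cd84 (0.857) and P2rx4 (0.85), over 18 tumors. C1qa and C1qc encode chains of complement C1q, which macrophages make, and both are on the macrophage list. Those most like Abca1 were Tmem87b (0.953), Slc26a11 (0.931), Snx30 (0.929), Adcy7 (0.924) and Ssh2 (0.920), none of them on a list used here.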

How the data were processed

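RNA of 18 K7M2 tumors was analysed, grouped by the labels. Per the study's methods and the submitters' processing notes, the authors aligned 75 nt paired reads of stranded, ribosome-depleted libraries to mm10 with STAR 2.6.0c, removed low-quality and duplicate reads, and quantified RefSeq genes with Cufflinks 2.2.1. The deposited matrix holds log2 values of FPKM with 1 added, for 20970 entries, of which 92 are spike-ins (1.39% to 2.93% of each library) that were left out. The log base was checked from FPKM times transcript length, whose sum was 1.10 to 1.13 times the known total with base 2 and 8.45 to 11.2 times with the natural log. The spacing of low FPKM values in 13570 genes with a single transcript gave an estimate of the fragments in each library, for fragments of 160 nt. Of those values, 35.5% to 41.3% came within 0.1 of a whole number (20% by chance), so reads were not recovered and no count-based test was used, although the study's own comparison was run with DESeq. Floors of 3 fragments account for counting error alone.

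The tests used limma 3.58.1 under R 4.3.3 (lmFit, then eBayes with trend), Benjamini-Hochberg adjustment, and genes whose mean reached 0.1 FPKM, after the steps had been tested on simulated data. Each comparison was fitted on its own groups and the interaction on all 4. A fold change with 1 FPKM added understates the change of low genes. P-values measure the spread between tumors of different mice and not that between cages, which the labels do not give. Exact permutation tests were two-sided, over 70 (Balb/c), 252 (NSG) or 126 (between hosts) arrangements. Correlations used values minus group means and 100000 permutations within groups. Python 3.11.15 ran the other steps.

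The 8 genes and the lists were chosen with earlier results of these data known. Named are all 8, up to 4 called genes with the largest changes per pathway list and comparison, genes within 100 kb of Apoe, and the 5 genes most like Apoe and Abca1. Gpihbp1 and Ch25h in Balb/c mice, Nr1h2, Eif2s3y and single markers were named after their values were seen. Alternatives were a pseudocount of 0.1, median-ratio scaling, a minimum of 1 FPKM or none, a fit of all groups, a robust prior combined with library weights, removal of the trend with transcript length, a fold of at least 2, and leaving out each tumor. Levels relative to marker lists, the sum of Apoc2 with its read-through gene and correlations in NSG tumors alone were chosen after seeing the data. Promoter sequences of Apoc1, Abcg1 and Lpl were not analysed here.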

Additional observations from a re-analysis of the deposited data

Results flagged for a closer look

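In 3 of 44 sets of tumors (a gene or marker list in a group), 1 tumor stood far from the rest, and since chance does this in about 1 of 20 sets, 2.2 would arise by chance. The Balb/c KD tumor of mouse 56 was low for Apoe, at 507.8 FPKM against 877.5 to 957.5 FPKM in the other 3, and for Apoc2, at 2.72 FPKM against 6.496 to 7.42 FPKM. The macrophage marker mean of this tumor, 6.34, was the lowest of its group and its endothelial mean, 4.13, the highest of all 18 tumors. Without it, the log2 fold change in Balb/c mice moved from −0.39 to −0.18 for Apoe and from −0.35 to −0.07 for Apoc2, both uncalled in limma (adjusted p = 0.911 and 0.969). The NSG CT tumor of mouse 3 was high for Abca1, at 87.9 FPKM against 36.3 to 41.95 FPKM in the other 4, and had the highest macrophage mean of all tumors, 7.41. The part of these cell types was not tested.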

How the results depend on the processing

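No paired analysis was possible because the groups share no mouse number. The count of the 8 genes called in NSG mice (3) was 1 to 4 with a tumor left out, with 1 without KD mouse 30, and the count between hosts in KD tumors (2) was 1 to 2, with 1 without KD mouse 58, 60, 29 or 30 and 1 with no filter on low values. The interaction count (0) was 0 to 1 with a tumor left out, with 1 without KD mouse 26, and 3 with library weights, each time including Apoc4, whose Balb/c tumors were all at or under the floor, under which the host count in CT tumors (3) was 5. The pathway count in NSG mice (8) was 5 with no filter, 27 with library weights, 0 with a fold of at least 2, and 0 to 12 with a tumor left out, with 0 without KD mouse 28 or 30. For the pathway genes between hosts, the count in CT tumors (1) was 2 with a pseudocount of 0.1, a fit of all groups or the length trend removed, 0 with a minimum of 1 FPKM, no filter or a fold of at least 2, 6 with library weights, and 0 to 2 with a tumor left out. That in KD tumors (3) was 13 with library weights, 0 with a fold of at least 2 and 0 to 4 with a tumor left out, and that in the interaction (0) was 5 with library weights. With a pseudocount of 0.1, 1 pair of the 8 genes in place of 3 had an adjusted p under 0.05 (permutation test). The cause was not tested for any of these.

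Values that changed sign were all uncalled. With the length trend removed they were −0.04 for Apoc4 (knock-down in Balb/c) and −0.047 for Abcg1 and 0.011 for Nr1h3 (host in CT tumors). With library weights they were −0.25 for Abcg1 (Balb/c), 0.76 for Apoc1 (NSG), −0.003 for Abcg1 (interaction) and 0.086 for Abca1 (host in CT tumors), and with a pseudocount of 0.1 the value was 0.29 for Apoc2 (interaction). With a tumor left out, the ranges of those that changed sign were −0.019 to 0.115 for Apoc4, −0.121 to 0.169 for Abcg1 and −0.074 to 0.41 for Nr1h3 (Balb/c), −0.576 to 0.099 for Apoc1 and −0.34 to 0.014 for Lpl (NSG), −0.229 to 0.233 for Apoc2 (interaction), and −0.22 to 0.093 for Abca1, −0.092 to 0.282 for Abcg1 and −0.23 to 0.253 for Nr1h3 (host in CT tumors).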
